A study of Mus musculus with 15 samples.

Results

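The glutathione S-transferases described here are 10 mouse genes, *Gsta4*, *Gstm1*, *Gstm2*, *Gstm5*, *Gstp1*, *Gstt1*, *Gsto1*, *Mgst1*, *Mgst2* and *Mgst3*, chosen by name, out of 20910 genes listed for cultured mouse retinal pigment epithelium (mRPE) cells and 25038 listed for RPE/choroid tissue. All 10 were listed and passed the filter on low counts in both tables. RNA-seq was analysed in 15 libraries. The 9 cultured libraries were 4 of wild-type (WT) mRPE, 3 of the line labelled mRPE Prom1KO 22 (KO22) and 2 of the line labelled mRPE Prom1KO 26 (KO26). The study's own comparison left out the KO26 libraries, which were still outliers after its batch correction. The study proposes biological heterogeneity within the samples or a technical anomaly. Per the methods, the mRPE cells came from C57BL/6J mice and were immortalized with the E6 and E7 genes of a papillomavirus, and each KO line is a CRISPR/Cas9-edited clone, so an effect of *Prom1* loss and a feature of 1 clone cannot be told apart within a line. The 6 tissue libraries were 3 labelled WT and 3 labelled *Prom1*-KO, made with floxed *Prom1* and a tamoxifen-induced RPE65-Cre directed to the RPE and not to the choroid. The labels do not say whether libraries of a group came from separate cultures or animals, so p-values measure the spread between libraries, which may be technical.

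Glutathione S-transferases join the thiol of glutathione to electrophiles such as lipid aldehydes, quinones and epoxides, and several also reduce peroxides. Most are soluble cytosolic enzymes, grouped in classes named alpha, mu, pi, theta and omega, while the microsomal enzymes (Mgst) sit in membranes and are unrelated in fold. The RPE takes up easily oxidized lipids with the outer segments of photoreceptors every day, and glutathione conjugation is among its known means of clearing their aldehydes. *Prom1* encodes prominin-1, a membrane glycoprotein.

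Total counts ran from 8076188 to 27537863 in the cultured libraries and from 48154444 to 61766179 in tissue. Levels are given in CPM, a gene's share of the counts of its library scaled up to a fixed library size, adjusted by TMM. TMM is a normalization that scales each library by a single factor and assumes that most genes do not change between libraries of one table. That assumption was not tested. The culture and tissue tables were scaled separately. "Rose" and "fell" mean an adjusted p (edgeR quasi-likelihood test, Benjamini-Hochberg over all genes tested) under 0.05. *Prom1* was not analysed here in the cultured libraries. In tissue it was at 48.7, 49.6 and 53.3 CPM in the libraries labelled WT and at 49.9, 48.1 and 35.5 CPM in those labelled *Prom1*-KO (log2 fold change -0.18 ± 0.16 SE, edgeR adjusted p = 0.824), so the deletion could not be read from the targeted gene. The tissue library labelled *Prom1*-KO replicate 3 stood apart, with a TMM factor of 0.488 against 1.07 to 1.33 in the others and 88.1% of its counts in 10 genes against 70.3% to 76.3%. The mitochondrial ribosomal RNA *mt-Rnr1* alone took 46.8% of its counts, against 31.6% to 35.3% in the other tissue libraries. Of 12 RPE marker genes, 4 (*Rdh5*, *Best1*, *Pmel* and *Mitf*) were analysed in mRPE, with a summed level of 11.8 to 17.4 CPM in WT, 17.3 to 40.0 in KO22 and 8.17 to 12.6 in KO26, and the other 8, *Rpe65* and *Lrat* among them, were not analysed here.

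In KO22 against WT, 4 of the 10 transferases rose (*Gsta4*, *Mgst1*, *Mgst2* and *Gsto1*) and 2 fell (*Gstm2* and *Gstm5*). *Gsta4* and *Mgst1* were each more than 5 times as high as in WT, and the 2 decreases were smaller. Among all 20455 genes tested, 26.9% rose and 26.1% fell, so calls were common across the genome, and the median log2 fold change was -0.03 for the 10 members and -0.03 for all genes. With the study's added limit of an absolute log2 fold change over 1.2, 2 members were higher and 0 lower, against 11.4% and 13.8% of all genes.

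*Gsta4* encodes the alpha-class transferase best known for conjugating hydroxynonenal, an aldehyde formed when lipids are oxidized. Its level was 18.4, 14.1, 15.3 and 12.7 CPM in the WT libraries, 88.1, 71.0 and 76.7 CPM in KO22, and 11.2 and 8.21 CPM in KO26. The 3 groups did not overlap, with KO22 at the top and KO26 at the bottom. KO22 and WT did not overlap for 50.1% of all genes tested, and KO26 and WT did not for 24.7%. It rose 5.11-fold in KO22 (log2 fold change 2.35 ± 0.11 SE, 95% interval 2.10 to 2.61, edgeR adjusted p = 7.47e-07). The difference was 2.23 on the log2 scale within sequencing batch 8995 and 2.36 within batch 9262. The gene lies at chr9:78090056-78117763 on the plus strand (GRCm39, the mm39 build), overlaps no other annotated gene, and the median log2 fold change of chromosome 9 in KO22 was 0.27.

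*Mgst1* encodes a microsomal transferase of the endoplasmic reticulum and outer mitochondrial membrane that also reduces lipid hydroperoxides. WT libraries gave 6.12, 9.53, 11.5 and 7.46 CPM, KO22 libraries 57.1, 44.0 and 37.6 CPM, and KO26 libraries 4.69 and 7.29 CPM. Every KO22 library was above every WT and KO26 library, and the WT and KO26 ranges overlapped. The rise in KO22 was 5.42-fold (log2 fold change 2.44 ± 0.23 SE, 95% interval 1.91 to 2.96, edgeR adjusted p = 3.09e-05), with within-batch differences of 3.12 (batch 8995) and 2.06 (batch 9262) on the log2 scale. *Mgst1* lies at chr6:138117314-138133774 on the plus strand, and the genes tested on that chromosome had -0.45 as their median log2 fold change.

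*Mgst2*, whose product can form leukotriene C4 besides conjugating electrophiles, was at 12.7, 18.4, 13.8 and 14.999 CPM in WT, 38.5, 25.9 and 33.4 CPM in KO22, and 3.20 and 11.1 CPM in KO26. As for *Gsta4*, the 3 groups were apart in the same order. The log2 fold change in KO22 was 1.11 ± 0.18 (SE, edgeR adjusted p = 0.00079). *Mgst2* lies at chr3:51567781-51590098 on the plus strand and overlaps the unclassified transcript *Gm37261* on the same strand and the long noncoding RNA *Gm65230* on the other.

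*Gsto1* encodes the omega-class transferase, which is known for reducing dehydroascorbate and mixed disulfides. It was at 57.0, 46.8, 37.3 and 40.6 CPM in WT, 64.5, 84.7 and 88.3 CPM in KO22, and 71.6 and 34.2 CPM in KO26. KO22 lay above WT in all libraries, and the 2 KO26 libraries fell on either side of the WT range. The rise in KO22 was 1.74-fold (log2 fold change 0.80 ± 0.17 SE, edgeR adjusted p = 0.00319), but the within-batch differences were unequal, 0.18 in batch 8995 and 1.05 in batch 9262. The gene lies at chr19:47842686-47853229 on the plus strand inside *Cfap43*, which runs the other way. The library kit marks strand, but the strand setting of the counting is not given in the sources used here, so reads of both genes may not be told apart.

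**Figure D1:**
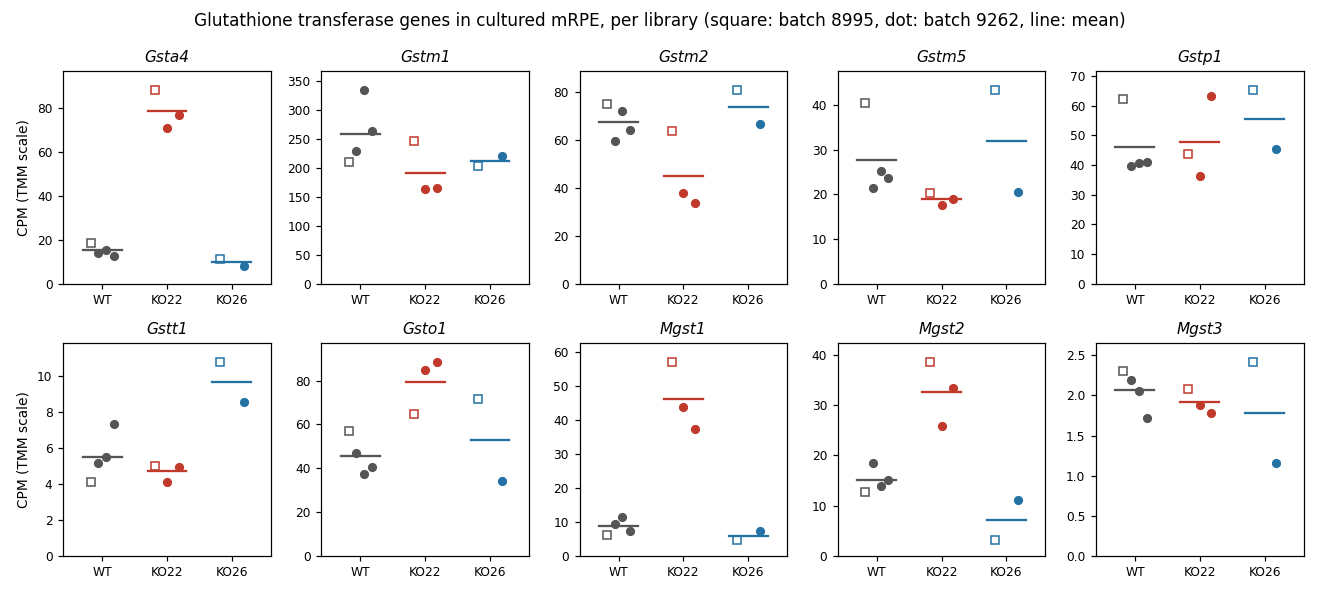
Level of each of the 10 transferases in CPM (linear y axis from 0) in every cultured library of WT, KO22 and KO26; squares are libraries of batch 8995, dots are libraries of batch 9262 and lines are group means. The KO22 libraries stand above all others for *Gsta4* (71.0 to 88.1 CPM), *Mgst1* (37.6 to 57.1) and *Mgst2* (25.9 to 38.5).

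The mu-class genes *Gstm1*, *Gstm2* and *Gstm5* form a cluster on chromosome 3 and encode cytosolic conjugating enzymes of broad range. *Gstm2* was at 75.2, 59.6, 72.2 and 64.2 CPM in WT, 63.7, 37.7 and 33.9 CPM in KO22, and 81.0 and 66.6 CPM in KO26. It fell in KO22 (log2 fold change -0.68 ± 0.15 SE, edgeR adjusted p = 0.00394), although KO22 replicate 1 stayed within the WT range. *Gstm5* was at 40.6, 21.5, 25.3 and 23.7 CPM in WT against 20.4, 17.7 and 18.9 CPM in KO22, and it fell by 0.55 ± 0.15 on the log2 scale (edgeR adjusted p = 0.0137). WT replicate 1 was the highest *Gstm5* library of WT, and the KO22 libraries were all below WT. *Gstm1*, the most abundant member per length, was at 210.4, 229.4, 334.6 and 263.2 CPM in WT and at 247.4, 163.2 and 165.3 CPM in KO22 (log2 fold change -0.46 ± 0.21 SE, edgeR adjusted p = 0.0896). The difference was 0.23 within batch 8995 and -0.73 within batch 9262 on the log2 scale. The outcome of its test turned on the 1 WT and 1 KO22 library of batch 8995, without either of which the comparison rests on batch 9262: without KO22 replicate 1 the log2 fold change was -0.73 (edgeR adjusted p = 1.61e-05), and without WT replicate 1 it was -0.76 (edgeR adjusted p = 1.69e-05). Of the 50-base stretches of the transcript, 21.6% in *Gstm1* and 31.4% in *Gstm2* occur in other genes as well, including each other. Of the 150-base stretches, the read length in the methods, 0% in *Gstm1* and 7.07% in *Gstm2* do, the latter not in *Gstm1*. Their counts may depend in part on how shared reads were assigned, and how far was not tested.

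*Gstp1* (pi class), *Gstt1* (theta class, known for small halogenated substrates) and *Mgst3* (a microsomal enzyme with peroxidase activity) did not pass the test in KO22. The 95% intervals of their log2 fold changes were -0.41 to 0.53, -0.74 to 0.32 and -0.68 to 0.42. Changes inside those intervals, in either direction, remained compatible with these libraries. *Gstp1* was at 62.3, 39.7, 40.7 and 41.0 CPM in WT and 43.8, 36.3 and 63.2 CPM in KO22. Of its 50-base stretches, 56.3% are shared with the neighbouring *Gstp2* and *Gstp-ps*. So are 37.2% of its 150-base stretches, and its level is uncertain for that reason.

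The KO22 libraries also differed from WT in genes that mark other cell types. The summed level of the 5 fibroblast markers analysed (of 6) was 12804 to 17500 CPM in WT, 5564 to 8667 CPM in KO22 and 19866 to 21793 CPM in KO26. That of the 4 endothelial markers analysed (of 6) was 152.9 to 236.2 CPM in WT, 3.41 to 4.77 CPM in KO22 and 56.3 to 73.8 CPM in KO26. The 6 pericyte and smooth muscle markers summed to 629.1 to 1754 CPM in WT, 183.4 to 275.9 CPM in KO22 and 934.2 to 1901 CPM in KO26. The summed level of the 4 Mueller glia markers analysed (of 6) was higher in KO22 than in WT. It was 2054 to 2492 CPM in WT, 2530 to 3056 CPM in KO22 and 2126 to 3075 CPM in KO26. The sum of the 2 macrophage and immune markers analysed (of 7) was also higher. It was 7.61 to 9.33 CPM in WT, 10.2 to 13.8 CPM in KO22 and 9.37 to 10.1 CPM in KO26. The part of these lists in the transferase differences was not tested.

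In KO26 against WT, *Gsta4* fell and the other 9 members did not pass the test. Among 20737 genes tested, 2.36% rose and 1.13% fell, and past both limits there were 0 members against 1.21% and 0.719% of all genes. The decrease of *Gsta4* was 0.73 on the log2 scale (-0.73 ± 0.15 SE, edgeR adjusted p = 0.0305), with -0.69 within batch 8995 and -0.74 within batch 9262. This is the opposite direction to KO22, in which the same WT libraries were the reference. The call was lost in 8 of 14 alternative settings: without any 1 of the 4 WT libraries, either KO26 library or KO22 replicate 2 (log2 fold changes from -0.79 to -0.67, edgeR adjusted p = 0.052 to 0.135) and with no batch term (-0.63, edgeR adjusted p = 0.183). *Mgst2* (log2 fold change -1.11 ± 0.38 SE, edgeR adjusted p = 0.139) was lower in KO26 replicate 1 than in any other cultured library. Of the 34 genes tested within 1 Mb of *Mgst2* in KO26, 5 fell and 0 rose, with -0.68 as the median log2 fold change, a local pattern whose part in the *Mgst2* value was not tested. *Gstt1* was at 10.8 and 8.56 CPM in KO26 against 4.13, 5.14, 5.50 and 7.32 CPM in WT, apart in all libraries (log2 fold change 0.85 ± 0.27 SE, edgeR adjusted p = 0.117). Without KO22 replicate 1, which enters the shared estimate of spread, *Gstt1* (0.91, edgeR adjusted p = 0.0143) and *Mgst2* (-1.11, edgeR adjusted p = 0.00858) passed the test in KO26, and *Mgst2* also did without KO26 replicate 2 (-2.25, edgeR adjusted p = 0.0239).

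The 2 lines were compared directly. *Gsta4* was 3.08 ± 0.17 (SE) higher in KO22 than in KO26 on the log2 scale (edgeR adjusted p = 1.28e-06), *Mgst1* 2.97 ± 0.33 (edgeR adjusted p = 9.43e-05) and *Mgst2* 2.29 ± 0.41 (edgeR adjusted p = 0.00178). *Gstm2* (-0.67, edgeR adjusted p = 0.0131) and *Gstt1* (-1.07, edgeR adjusted p = 0.0136) were lower in KO22. These were 3 higher and 2 lower of 10 members, where 16.3% of all genes were higher and 18.1% lower, and past both limits 3 were higher and 0 lower, against 7.56% and 10.7%. The *Gsta4* difference was 2.92 within batch 8995 and 3.09 within batch 9262, and that of *Mgst2* was 3.40 and 1.37. Other genes tested within 1 Mb had a median log2 difference of 0.77 around *Mgst2* and -0.68 around *Gstt1*. That median was 0.30 around *Gsta4*, -0.21 around *Mgst1* and 0.27 around *Gstm2*. Chromosome 10, which holds *Gstt1*, had a median of -0.54. The part of these local values in the member differences was not tested. The *Gstm2* difference did not pass the test without KO22 replicate 2 (-0.62, edgeR adjusted p = 0.0519) or without KO26 replicate 2 (-0.55, edgeR adjusted p = 0.111), nor did *Gstt1* without KO26 replicate 1 (-0.80, edgeR adjusted p = 0.119). *Gsto1* was 0.70 higher (edgeR adjusted p = 0.0769), with -0.15 within batch 8995 and 1.32 within batch 9262, and it passed the test without KO22 replicate 1 (1.13, edgeR adjusted p = 7.88e-05) or KO26 replicate 1 (1.19, edgeR adjusted p = 0.0136).

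**Figure D2:**
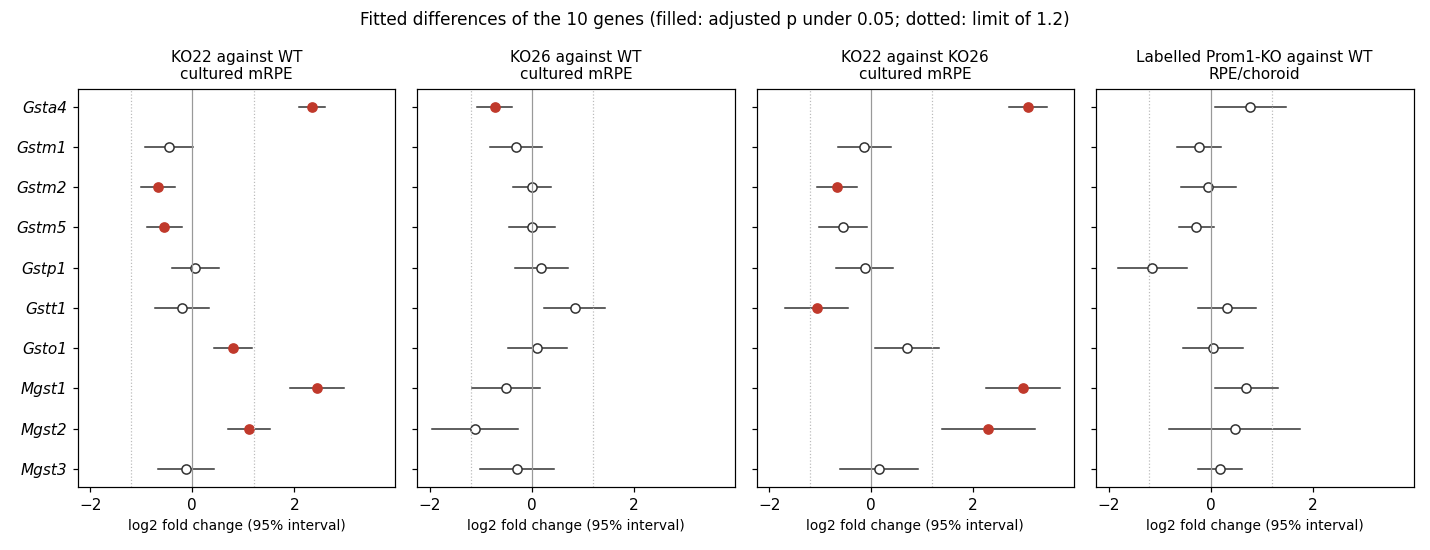
Log2 fold change of each member with its 95% interval in KO22 against WT, KO26 against WT, KO22 against KO26 and RPE/choroid labelled *Prom1*-KO against WT; filled points have an edgeR adjusted p under 0.05 and dotted lines mark 1.2 in either direction. *Gsta4* is at 2.35 in KO22, -0.73 in KO26 and 0.78 in tissue, and no tissue point is filled.

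The make-up of the family was compared after division by transcript length (CPM per kb, canonical transcript). In WT mRPE the order of mean levels ran from *Gstm1* (188.0 CPM per kb) through *Gstm2* (62.6) and *Gstp1* (50.8), whose ranges overlapped, to *Gstm5* (29.4), *Gsto1* (23.8) and *Mgst2* (19.2), where each gene's range overlapped that of the next in order. *Mgst1* (7.24) and *Gsta4* (7.17) overlapped, and *Gstt1* (3.22) and *Mgst3* (1.47) came last, each apart from its neighbour. In KO22, *Gstm1* stayed first (139.1 CPM per kb), and *Gstp1*, *Mgst2*, *Gstm2*, *Gsto1*, *Mgst1* and *Gsta4*, from 52.9 to 37.3, formed one run of overlapping ranges. In KO26 the order was close to that of WT, with *Gsta4* (4.598) ninth. *Gsta4* made up 1.83% of the family's summed CPM per kb in WT, 8.97% in KO22 and 1.24% in KO26, and *Mgst1* 1.84%, 9.26% and 1.39%. *Gstm1* took 47.7% in WT and 33.1% in KO22. The summed CPM of the 10 genes differed less than the shares, at 492.7 ± 47.3 in WT (SD, n = 4), 547.1 ± 74.7 in KO22 (n = 3) and 459.7 ± 51.5 in KO26 (n = 2), with overlapping ranges.

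**Figure D3:**
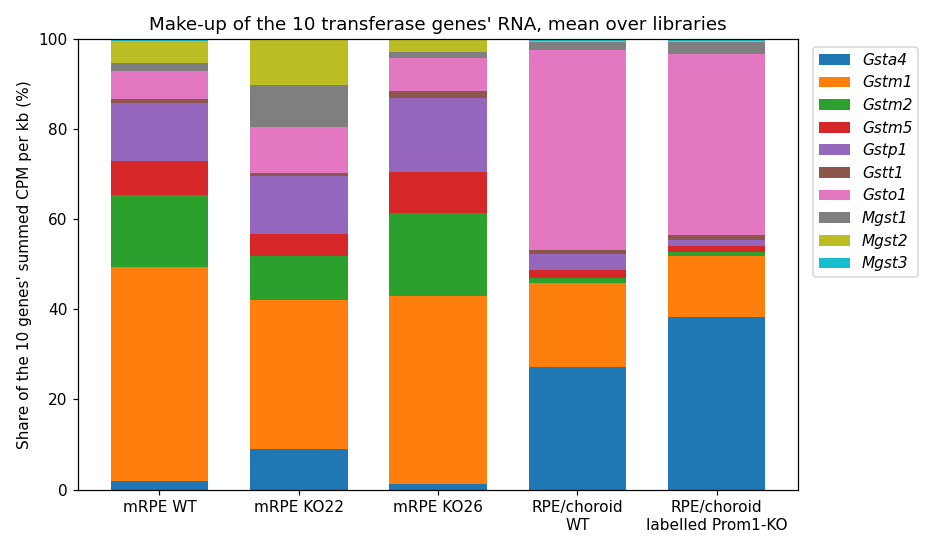
Share of each member in the summed CPM per kb of the 10 transferases (percent, stacked bars, mean of the libraries of each group). *Gstm1* is the largest share in the cultured groups (47.7% in WT, 33.1% in KO22, 41.8% in KO26) and *Gsto1* in tissue (44.4% in WT, 40.2% in the libraries labelled *Prom1*-KO).

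The bases before the start sites of the members were also read. Transferase genes are known targets of Nrf2 (*Nfe2l2*), which binds the antioxidant response element, and of the aryl hydrocarbon receptor, which binds the xenobiotic response element. The 250 bases before the start of the canonical transcript were taken from GRCm39 for the 9 members that matched the RefSeq promoter table (*Gsta4* did not match). The core TGACNNNGC, searched on both strands, was in 1 of 9 members (*Gstm5*, 9 bases before the start), or 11.1%, against 9.69% of 21770 genes. The core GCGTG was in 2 of 9 (*Gstm2* and *Gstm5*), or 22.2%, against 31.2%, and 1 of the *Gstm5* matches shares bases with its TGACNNNGC match. TATAAA was in 0 of 9, against 11.9%. So the letters of neither response element were in these windows of *Mgst1*, *Mgst2* or *Gsto1*, the members that rose and were read. This says nothing of sites elsewhere. *Gsta4*, the other member that rose, was left out only because its name had no match. The 21770 genes were not restricted to matches. The canonical transcripts of *Mgst1* and *Mgst2* start inside the annotated genes, so their windows lie after the gene starts (138117314 and 51567781). Annotated exons cover 216 of the 250 bases of the *Mgst1* window and all 250 of the *Gstm5* window. The windows of 2 members that rose and 1 that fell are printed 5′ to 3′ on the strand of the gene, with matches to either core in capitals.
*Mgst2*, GRCm39 chr3:51568173-51568422, plus strand: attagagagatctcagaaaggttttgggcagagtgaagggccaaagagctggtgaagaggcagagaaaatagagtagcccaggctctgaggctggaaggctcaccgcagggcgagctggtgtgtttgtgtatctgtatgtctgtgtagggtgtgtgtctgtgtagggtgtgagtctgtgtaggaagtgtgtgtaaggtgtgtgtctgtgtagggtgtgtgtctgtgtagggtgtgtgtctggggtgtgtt
*Gsto1*, GRCm39 chr19:47842436-47842685, plus strand: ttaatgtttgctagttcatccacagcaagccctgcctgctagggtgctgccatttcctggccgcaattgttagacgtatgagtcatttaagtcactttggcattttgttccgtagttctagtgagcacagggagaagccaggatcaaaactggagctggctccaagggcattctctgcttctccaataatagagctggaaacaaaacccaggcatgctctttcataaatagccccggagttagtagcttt
*Gstm2*, GRCm39 chr3:107893786-107894035, minus strand: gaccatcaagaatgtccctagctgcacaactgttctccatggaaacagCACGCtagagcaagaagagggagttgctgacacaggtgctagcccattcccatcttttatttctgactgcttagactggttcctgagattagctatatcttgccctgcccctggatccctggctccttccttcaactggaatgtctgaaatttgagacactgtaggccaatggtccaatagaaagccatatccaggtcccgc

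The rest of the glutathione pathway was described from lists of genes that do not include the members. The counts of each list stand beside 26.9% of all genes that rose and 26.1% that fell in KO22. In KO26 these shares were 2.36% and 1.13%. Whether a list differs from them was not tested. Of 14 other glutathione transferases and related membrane enzymes tested in KO22, 2 rose and 7 fell, with a median log2 fold change of -0.62. The mu-class *Gstm4* rose by 3.09 ± 0.41 (SE) on the log2 scale, from 0.199 to 0.393 CPM in WT to 1.71 to 3.55 CPM in KO22, so it remained at a low level, and *Gstcd*, which carries a transferase C-terminal domain, rose by 1.02. The mitochondrial and peroxisomal kappa enzyme *Gstk1* (-2.66), the alpha-class *Gsta3* (-2.06), the leukotriene C4 synthase gene *Ltc4s* (-2.33), *Gsto2* (-1.50), *Alox5ap* (-1.36) and the zeta-class *Gstz1* (-0.86) fell. *Gstt2* also passed the test as lower, with 1 to 9 counts per library in WT, 0 to 1 in KO22 and 8 to 17 in KO26, and no fold is given where every library of a group is at 3 counts or fewer. Counts were also low for *Gsta3* and *Ltc4s* (0 to 8 per KO22 library for each) and for *Gstm4* (3 to 5 per WT library), and their fold changes depend on the prior count. *Ptges* (0.09), *Gstm7* (0.85), *Hpgds* (-0.38), *Gstt3* (0.00) and *Gstt4* (1.29) did not pass. In KO26, 0 of the 14 passed (0 to 3 rose and 0 to 1 fell under the alternatives).

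Of 18 genes of glutathione synthesis and recycling, 9 rose and 4 fell in KO22. *Slc7a11*, the cystine importer that supplies cysteine for glutathione, was at 2.06 to 5.76 CPM in WT, 126.7 to 288.0 CPM in KO22 and 13.6 to 22.3 CPM in KO26. It rose in both lines, by 5.73 ± 0.12 (SE, edgeR adjusted p = 3.48e-08) in KO22 and by 2.27 ± 0.16 (edgeR adjusted p = 0.000678) in KO26 on the log2 scale. Glutathione reductase, *Gsr*, was at 10.7 to 12.2 CPM in WT and 70.9 to 72.4 CPM in KO22 (log2 fold change 2.65). *Ggct*, an enzyme of the gamma-glutamyl cycle (1.96), and *Gclc*, the catalytic subunit of the rate-limiting ligase (1.26), rose as well, and the secreted peroxidase *Gpx3* fell by 2.10. *Chac1*, which breaks glutathione down and is named after its values were seen, also rose in KO22 (1.59, edgeR adjusted p = 0.0195). In KO26, *Slc7a11* and its partner chain *Slc3a2* (0.65, edgeR adjusted p = 0.0214) rose and 0 of the 18 fell. Those counts were 6 and 2 without KO22 replicate 1, 5 and 2 in the fit of WT and KO26 alone, and 4 and 0 by DESeq2's Wald test, and 1 rose with no batch term, without KO26 replicate 1 and without WT replicate 2, 3 or 4.

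Of 12 genes of conjugate export and mercapturate formation, 3 rose and 5 fell in KO22, and without KO22 replicate 2 the number that fell was 3. The exporters *Abcc4* (3.37) and *Abcc1* (1.24), which carry glutathione conjugates out of cells, and the aminopeptidase *Lap3* (1.37) rose, while the exporter *Abcc3* (-1.70) and the dipeptidase *Dpep1* (-3.69) fell. *Nat8*, the N-acetyltransferase that completes mercapturates, also passed as lower at 4 to 11 counts in WT and 0 to 2 in KO22. Of 22 other enzymes that clear aldehydes, quinones and epoxides, 9 rose and 8 fell. The quinone reductase *Nqo1* rose in both lines, by 3.60 in KO22 (29.8 to 45.7 CPM against 2.45 to 3.66 in WT) and by 1.39 in KO26 (7.29 to 9.002 CPM, edgeR adjusted p = 0.00566). The aldehyde dehydrogenase *Aldh3a1* rose by 5.94 and the carbonyl reductase *Cbr3* by 1.49 in KO22, whereas the retinal dehydrogenase *Aldh1a1* (-6.84, from 348.8 to 715.9 CPM in WT to 1.90 to 7.09 CPM in KO22) and the sulfotransferase *Sult1a1* (-1.76) fell.

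Of 11 transcription factors and partners known to act on transferase genes, 5 rose and 0 fell in KO22, and 0 passed in KO26. In KO22, 2 rose without KO22 replicate 2 or without KO22 replicate 3, and 3 without WT replicate 2. In KO26, 2 rose without KO22 replicate 1, and 1 in the fit of WT and KO26 alone. *Ahrr*, the repressor of the aryl hydrocarbon receptor, was at 0 to 1 counts per library in WT, 24 to 45 in KO22 and 0 to 2 in KO26. *Nfe2l2*, named after its values were seen, was at 155.2 ± 11.8 CPM in WT (SD, n = 4), 328.2 ± 51.9 in KO22 (n = 3) and 162.0 ± 5.90 in KO26 (n = 2), and it rose by 1.06 on the log2 scale in KO22 (edgeR adjusted p = 0.000136). The rest of those that rose in KO22, also named after their values were seen, were *Maff* (0.93, edgeR adjusted p = 0.00479), *Keap1* (0.45, edgeR adjusted p = 0.0136) and *Mafg* (0.32, edgeR adjusted p = 0.0276). The mRNA level of a factor was measured, and its activity was not.

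**Figure D4:**
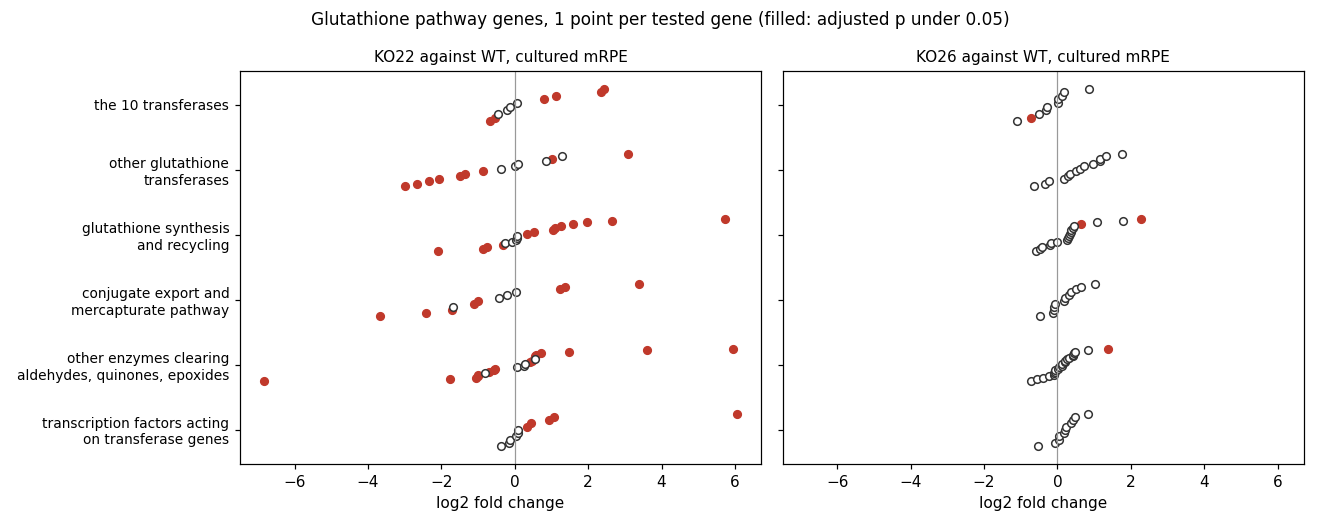
Log2 fold change of each tested gene of the transferases and of the 5 pathway lists in KO22 against WT and in KO26 against WT, with filled points for edgeR adjusted p under 0.05. *Slc7a11* (5.73 and 2.27) and *Nqo1* (3.60 and 1.39) are past the test and higher in both lines.

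In RPE/choroid the family had another make-up. *Gsto1* (258.0 CPM per kb), *Gsta4* (154.0) and *Gstm1* (106.2) led in the libraries labelled WT, each apart from the next, while *Mgst2* was last (0.697). *Gsta4* was 27.2% and *Mgst2* 0.122% of the family's summed CPM per kb. The tissue holds choroidal cells and others as well as RPE, and in bulk samples fewer cells of a type and less RNA per cell cannot be told apart.

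Between tissue libraries labelled *Prom1*-KO and WT, 0 of 10 members passed the test, where 0% of 24926 genes rose and 0.193% fell (0% and 0.189% past both limits). At an unadjusted p under 0.05 there were 3 members, against 8.3% of all genes. DESeq2's Wald test called 1 member, *Gstp1*, lower (DESeq2 adjusted p = 0.0196) and 0 higher, against 1.27% and 0.602% of all genes. *Gsta4* was at 359.2, 328.3 and 286.6 CPM in WT and 382.4, 457.6 and 827.1 CPM in the libraries labelled *Prom1*-KO, all of which were above WT, where 14.6% of all genes were apart between these groups (log2 fold change 0.78 ± 0.30 SE, 95% interval 0.08 to 1.47, edgeR adjusted p = 0.549). The highest was replicate 3, the library that stood apart, and without it the log2 fold change was 0.36 (edgeR adjusted p = 0.566). *Mgst1* was at 18.6, 10.3 and 9.45 CPM in WT against 22.9, 20.0 and 19.3 CPM (log2 fold change 0.70 ± 0.26 SE, edgeR adjusted p = 0.535, and 0.73 without replicate 3). Its groups did not overlap. *Gstp1* was at 22.1, 23.3 and 11.3 CPM in WT against 9.65, 9.26 and 6.73 CPM, lower in every library (log2 fold change -1.14 ± 0.29 SE, edgeR adjusted p = 0.286, and -1.01 without replicate 3). *Gsto1* overlapped, with 579.2, 559.3 and 336.0 CPM in WT and 408.7, 580.9 and 531.9 CPM in the others. *Mgst2* had 16 to 44 counts per tissue library, too few to rank its groups.

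Markers of several cell types differed between the tissue labels. The 12 RPE markers summed to 1604 to 2333 CPM in the libraries labelled WT and 647.6 to 855.2 CPM in those labelled *Prom1*-KO. *Rpe65*, the retinoid isomerase, was at 203.8 to 287.2 CPM against 1.13 to 5.97 CPM (log2 fold change -6.06, edgeR adjusted p = 0.0191), and *Lrat*, its partner in the visual cycle, fell by 3.43 (edgeR adjusted p = 0.00445). Of the 12 markers, 4 fell and 0 rose, *Tyr* was at 65.3 to 95.8 CPM in WT and 81.5 to 115.1 CPM in the other group (log2 fold change 0.31, edgeR adjusted p = 0.75), and *Best1* differed by -0.25 on the log2 scale (edgeR adjusted p = 0.912). The summed markers of Mueller glia (337.8 to 488.0 CPM in WT, 497.1 to 673.5 CPM in the other group) and of melanocytes (389.8 to 646.4 and 653.3 to 698.6 CPM) were apart and higher in the libraries labelled *Prom1*-KO. Those of endothelium were apart and lower (67.2 to 138.0 and 37.0 to 61.1 CPM). The part of these differences in the transferase values was not tested.

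**Figure D5:**
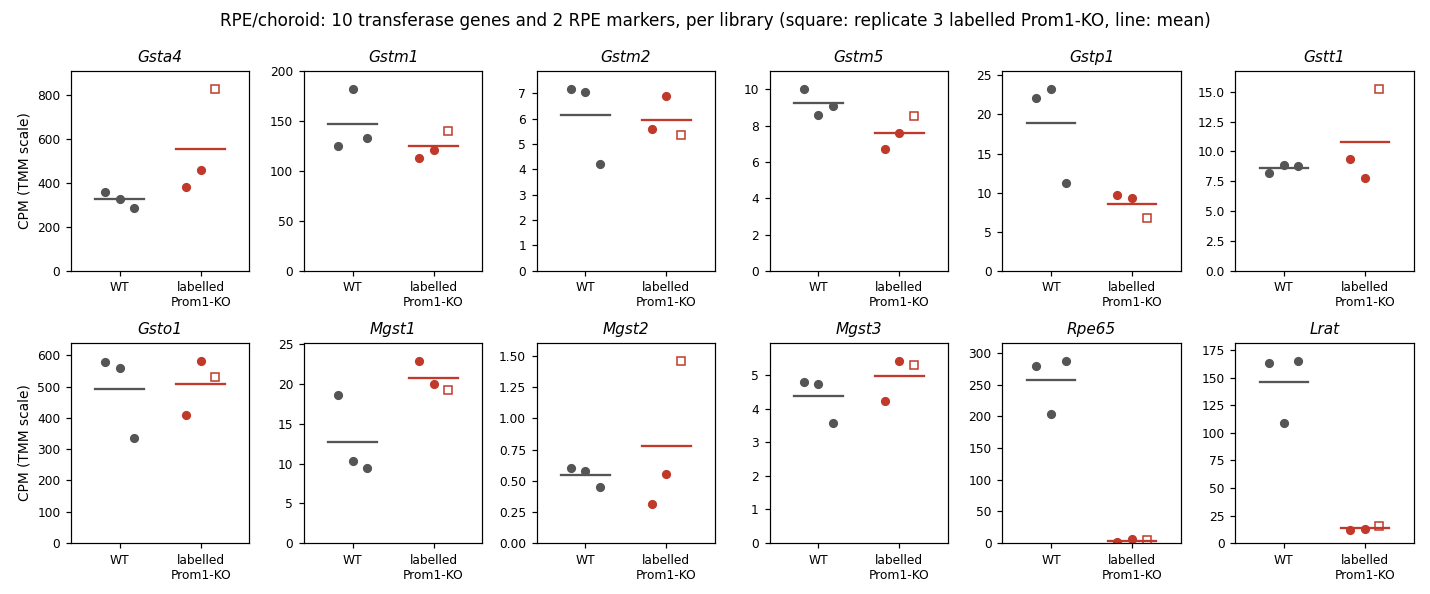
CPM of the 10 transferases and of the RPE markers *Rpe65* and *Lrat* in each RPE/choroid library (linear y axis from 0), with lines for group means and a square for the replicate 3 library labelled *Prom1*-KO. *Rpe65* is at 203.8 to 287.2 CPM in WT and 1.13 to 5.97 CPM in the libraries labelled *Prom1*-KO, while *Gsta4* lies at 286.6 to 359.2 and 382.4 to 827.1 CPM.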

How the data were processed

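Polyadenylated RNA was sequenced from cultured mRPE cells (9 libraries, 2 sequencing batches) and RPE/choroid (6 libraries). Per the labels and methods, the authors trimmed reads with Trim Galore 0.6.7, aligned them to mm39 with STAR and excluded genes with low counts. The 2 tables used hold raw gene counts as deposited, and the authors' DESeq2-normalized values were not used. Libraries were grouped by their labels.

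A minimum of 5 counts in 3 or more libraries was set, and edgeR 4.0.16 (R 4.3.3, TMM, quasi-likelihood F test, Benjamini-Hochberg over all genes tested) was run with batch as a term in culture. KO22 was tested with WT alone, and KO26 in a fit of all 9 cultured libraries. Standard errors are the absolute log2 fold change over the square root of F. DESeq2 1.42.0, other filters, no batch term and leaving out each library were the alternatives. Within-batch values are differences of mean log2(CPM + 0.5). Members, lists and markers were chosen with earlier results of these data known. From each list, genes past both limits were named, at most 4 per direction, and every other transferase tested. On counts simulated for the real genes with 200 changed (log2 fold change 2), the test recovered 176 of 195 for KO22, 150 of 199 for KO26, 151 of 197 between lines and 111 of 190 in tissue. In that order, 13, 6, 6 and 8 unchanged genes were called. The simulated counts held no batch effect and far fewer changed genes than were called in KO22, so these rates may not carry over. Replicate counts differed by more than counting noise (chi-square per degree of freedom at least 4.80), so no library was counted as deposited more than once. Start sites and lengths are from GENCODE vM39.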

Additional observations from a re-analysis of the deposited data

Results flagged for a closer look

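In the 4 WT mRPE libraries, *Gstp1* was at 62.3 CPM in replicate 1, the WT library of batch 8995, and at 39.7 to 41.0 CPM in the others, a gap of 0.943 of the group's range, above Dixon's critical value, which chance passes in about 1 in 20 groups. The 2 *Prom1*-edited lines differed in the direct edgeR test on 5 members, with a log2 difference (KO22 minus KO26) of 3.08 for *Gsta4*, 2.97 for *Mgst1*, 2.29 for *Mgst2*, -0.67 for *Gstm2* and -1.07 for *Gstt1*. The fitted values of *Gsta4* had opposite signs in KO26 cells (log2 fold change -0.73) and in RPE/choroid labelled *Prom1*-KO (log2 fold change 0.78), with every library of each group beyond the WT range of its own table. The KO26 call was lost in 8 of 14 settings, and the tissue value did not pass the test (edgeR adjusted p = 0.549) and was 0.36 without replicate 3. The tables were normalized separately and that difference was not tested.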

How the results depend on the processing

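In KO22 against WT, the 4 increases kept their direction and call in all 12 alternatives, and the 2 decreases did except that, with no batch term, 1 member was lower in place of 2, since *Gstm5* missed the limit. Leaving out 1 library at a time gave 4 higher and 2 to 3 lower, and 2 to 3 higher past both limits. KO26 calls were the least stable. With no batch term 0 members were lower, in the fit of WT and KO26 alone 1 was higher and 2 lower, and leaving out 1 library gave 0 to 1 higher, 0 to 2 lower and 0 to 1 lower past both limits. Between lines, 1 member was lower with no batch term, and leaving out 1 library gave 3 to 4 higher, 1 to 3 lower and 0 to 1 lower past both limits. In tissue, DESeq2's Wald test gave 1 lower. The cause of these changes was not tested.

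Directions turned for log2 fold changes of up to 0.47 in absolute size (*Mgst2* in tissue). Some smaller values kept their direction, such as *Gstm1* in tissue (-0.23). In KO26, *Gstm2* was -0.00801 with DESeq2 size factors and -0.0080 with the DESeq2 Wald test, *Gstm5* -0.0078 and -0.00616 with these and -0.079 with WT and KO26 alone, and *Gsto1* -0.0306 with WT and KO26 alone. Leaving out 1 library gave ranges across 0 for *Gstp1* in KO22 (-0.34 to 0.29), for *Gstm2* (-0.12 to 0.10), *Gstm5* (-0.27 to 0.30), *Gsto1* (-0.39 to 0.61) and *Mgst3* (-0.78 to 0.077) in KO26, for *Gstp1* (-0.44 to 0.16) and *Mgst3* (-0.20 to 0.66) between lines, and for *Gstm2* (-0.26 to 0.079), *Gstt1* (-0.015 to 0.51), *Gsto1* (-0.17 to 0.18) and *Mgst2* (-0.33 to 0.85) in tissue. No paired analysis was possible because the labels give no replicate numbers shared between groups. The 2 KO26 libraries and the 3 tissue libraries a group limit what could be detected.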

Other observations

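Transferases outside the 10 genes were also present in RPE/choroid. In the libraries labelled WT, *Gsta2* was at 8.12 to 10.3 CPM, *Gsta1* at 2.08 to 2.64, *Gsta13* at 1.19 to 2.08, *Gstm6* at 0.996 to 1.195, *Gsta5* at 0.831 to 1.30 and *Gstp2* at 0.338 to 0.463 CPM. *Gsta3*, an alpha-class gene of low level in culture, was at 21.2 to 51.7 CPM in WT and 55.0 to 62.8 CPM in the libraries labelled *Prom1*-KO, and *Gpx3*, which fell in KO22 cells, was at 64.8 to 109.1 and 166.5 to 239.0 CPM. *Ptges*, a related membrane enzyme, went the other way, at 8.58 to 12.8 CPM in WT and 3.94 to 5.08 CPM in the libraries labelled *Prom1*-KO (log2 fold change -1.21, edgeR adjusted p = 0.0836). For *Gsta3*, *Gpx3* and *Ptges* the groups did not overlap, as for 14.6% of all genes tested in tissue. None of these genes passed the test there.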
